A study of Mus musculus with 50 samples.

Results

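The genes described here are 39 genes of the non-collagen extracellular matrix and of fibroblasts, the cells that make most of the matrix in mammary stroma. They were taken as a list: 6 small leucine-rich proteoglycans, elastic fibre and microfibril genes, matricellular and other large matrix genes, crosslinking enzymes, metalloproteinases with their inhibitors, and genes for fibroblast surface and secreted proteins. Of the 39 genes, 37 had a probe set annotated to 1 gene, out of 22180 genes in the series with such a probe set, and all 37 passed the filter on low values that left 18045 genes. Fbn1 and Loxl2 had no probe set of their own in the annotation used and are not analysed here. A gene with several such probe sets is represented by the brightest on average.

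RNA from biopsies of 50 spontaneous mammary tumours, each on 1 Affymetrix array, was measured before any drug was given. The donors were female F1Bx mice, born of hybrids between C57BL/6J and FVB/NJ that were crossed back to FVB/NJ MMTV-Erbb2, a strain that expresses the receptor tyrosine kinase ErbB2 in mammary epithelium under a viral (MMTV) promoter. All tumours carried the transgene. For the later treatment the series title names doxorubicin, whereas the sample protocol names docetaxel. The labels put all tumours in 1 group, with no normal tissue, no age and no response beside them. The comparisons below are therefore relations over the 50 tumours, each named as in its title (mid79, for example).

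In a mammary tumour the epithelial nests lie in a stroma of fibroblasts, vessels and immune cells, held by a matrix of fibrillar collagens. Proteoglycans such as decorin and lumican bind and space the collagen fibrils, elastin and microfibrils give recoil, lysyl oxidases crosslink the fibres, and metalloproteinases and their tissue inhibitors set the rate of turnover. Matricellular proteins such as periostin and tenascin C sit in that matrix and signal to cells, and fibroblasts are commonly recognised by the platelet-derived growth factor receptors, Thy1 and fibroblast activation protein.

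Values were log2 expression after RMA, and the number of arrays limits the precision. Each array was correlated with all others, and the mean of these r had a median of 0.978 and was under 0.96 for mid79, mid60 and mid100. No 2 arrays were identical. Markers of the labelled tissue were present, with Epcam, an epithelial adhesion protein, at 8.61 in mid79, a median of 11.50 and at most 11.74, and Erbb2 itself at 9.02 in mid60, a median of 11.71 and at most 11.94. The 3 arrays also held extremes of other cell types: mid79 had the highest adipocyte score (5.77, the mean of its genes in SD units) and the lowest epithelial score (-4.26), mid60 the highest score for skin genes (6.29), and mid100 the highest for skeletal muscle (4.62, with mid71 next at 4.44). Results are therefore given with and without these 3 arrays where that changes them.

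The stromal matrix genes varied more between tumours than most genes did. Their median SD was 0.96 log2 against 0.23 over all genes past the filter, and 35 of 37 spanned at least 2-fold between the 5th and the 95th percentile of tumours (94.6%, against 23.8% of all genes). For 27 of 37 the span was at least 4-fold (73.0%, against 4.65% of all genes). In a biopsy, fewer cells of a type and less RNA per cell cannot be told apart.

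The 6 small leucine-rich proteoglycans spanned between 8.07-fold and 78.0-fold from the 5th to the 95th percentile. Dcn, decorin, which binds collagen fibrils and TGF-beta, was at 3.88 log2 in mid130, had a median of 8.08 and reached 12.18 in mid79. Ogn, osteoglycin, was at 4.35 in mid75, had a median of 6.26 and reached 11.22 in mid100. Lum, lumican, was at 3.67 in mid26, with a median of 5.42 and 9.94 in mid100. The lowest values of Dcn and Lum lie under the filter of 4.09 log2, where differences are compressed. For these 3 genes mid100 and mid79 were the highest 2 tumours, 0.02 log2 apart for Dcn. Aspn, asporin, which binds collagen and TGF-beta, ran between 5.30 and 10.57 with a median of 6.69 and was highest in mid9. Bgn, biglycan, ran between 8.46 and 12.72 with a median of 10.99, and its highest 2 tumours were mid9 and mid100. Prelp, which anchors basement membrane to collagen, stood at 12.04 in mid79, 1.66 log2 above the next tumour, with a median of 8.39 and a lowest value of 6.59.

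Among elastic fibre and microfibril genes, Mfap5, a microfibril glycoprotein, had the widest span of those that followed the other members, with 4.86 in mid26, a median of 7.36 and 10.64 in mid100. Eln, elastin, ran between 5.17 and 8.72 (median 6.36) and was high in mid99 (8.59) as well as in mid100. Fbln1, a fibulin of the elastic fibre and basement membrane, ran between 5.80 and 8.69 (median 6.62), and Fbln2, another fibulin, between 6.22 and 10.20 (median 8.07). Mfap2, a microfibril component that binds TGF-beta family ligands, had one of the narrowest ranges, between 5.19 and 6.62 except for 7.67 in mid100. Fbln5, which is needed for elastic fibre assembly, was spread broadly between 5.84 and 10.45 with a median of 8.44, and neither of its highest tumours, mid102 and mid101, was the highest for another member.

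Of the matricellular and large matrix genes, Postn, periostin, was at 6.6 in mid115, had a median of 9.50 and reached 11.92 in mid9. Dpt, dermatopontin, a small matrix protein that binds decorin, was at 4.48 in mid43, had a median of 6.85 and reached 12.15 in mid79 and 12.06 in mid100. Tnc, tenascin C, had a median of 7.53 and stood at 11.78 in mid9, 1.70 log2 above the next tumour, mid60. So the tumour with the highest Dpt was not the one with the highest Tnc: in mid79 Tnc was 6.97, below its median. Thbs2, an antiangiogenic thrombospondin, ran between 5.86 and 10.92 (median 8.01), Sparc, a collagen-binding matricellular protein, between 8.11 and 11.19 (median 9.57), and Vcan, the large proteoglycan versican, between 5.51 and 9.07 (median 7.09), all highest in mid9. Has2, the enzyme that makes hyaluronan, was at 8.44 in mid9 and 8.43 in mid60 against a median of 5.03. This pair of tumours thus lay over 3 log2 above the median, and mid100 was next at 7.37. Cthrc1, a protein secreted by activated fibroblasts, lay between 5.90 and 7.60 except for 8.77 in mid9. Thbs1, thrombospondin 1, which activates latent TGF-beta, ran between 9.56 in mid47 and 12.55 in mid33 with a median of 11.31.

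The crosslinking enzyme Lox, lysyl oxidase, was at 5.13 in mid26, had a median of 7.67 and reached 11.33 in mid9, 1.66 log2 above the next tumour. Loxl1, which crosslinks elastin, ran between 5.27 and 9.16 with a median of 6.85, and mid100 and mid9 were highest.

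Among the proteases, Mmp2, a gelatinase, ran between 5.97 and 11.03 (median 8.09), and Mmp14, the membrane protease that activates it, between 7.06 and 11.18 (median 8.90). Mmp3, stromelysin 1, was low in most tumours, with a median of 5.09 and a lowest value of 4.48, and reached 9.10 in mid100 and 8.66 in mid60. The inhibitors did not peak in the same tumours: Timp1 was at 10.19 in mid9 (median 6.21, lowest 4.87), Timp2 at 10.68 in mid100 (median 8.28, lowest 6.21) and Timp3 at 10.61 in mid79 (median 7.99, lowest 6.84). In mid79, where Timp3 was highest, Timp1 was at 5.45, below its median. Mmp11, stromelysin 3, was nearly flat, between 5.70 and 6.70 with an SD of 0.15, the smallest of the 37.

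The fibroblast surface and secreted genes were all highest in mid100 or mid79. Pdgfra, the platelet-derived growth factor receptor alpha of fibroblasts, ran between 5.36 and 10.51 (median 6.78), and Pdgfrb, the receptor beta that pericytes share, between 7.25 and 9.62 (median 8.06). Fap, the fibroblast activation protein, a surface protease, had a median of 5.39 and a lowest value of 4.85, and stood at 8.88 in mid100 and 8.59 in mid79, while the third highest tumour, mid9, was at 7.34. Thy1, a surface glycoprotein, lay between 6.20 and 9.60 (median 6.97), and Fstl1, follistatin-like 1, a secreted glycoprotein, between 6.31 and 10.75 (median 7.95). Serpinf1, the antiangiogenic factor PEDF, lay between 6.6 and 9.21 (median 7.29), and Islr, meflin, between 5.33 and 9.70 (median 6.31).

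Over all 37 genes, the highest tumour was mid100 for 15, mid9 for 12, mid79 for 6, and mid60, mid71, mid102 and mid33 for 1 each. The mean standardised level of the 37 genes was 2.19 in mid100, 2.07 in mid9 and 1.58 in mid79, with mid60 next, and lowest in mid115 (-1.17) and mid130 (-1.12). Of these 4 high tumours, 3 are the arrays that correlated least with the rest (mean r under 0.96), and mid9, at 0.967, was the next lowest of the 50 arrays.

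**Figure D1:**
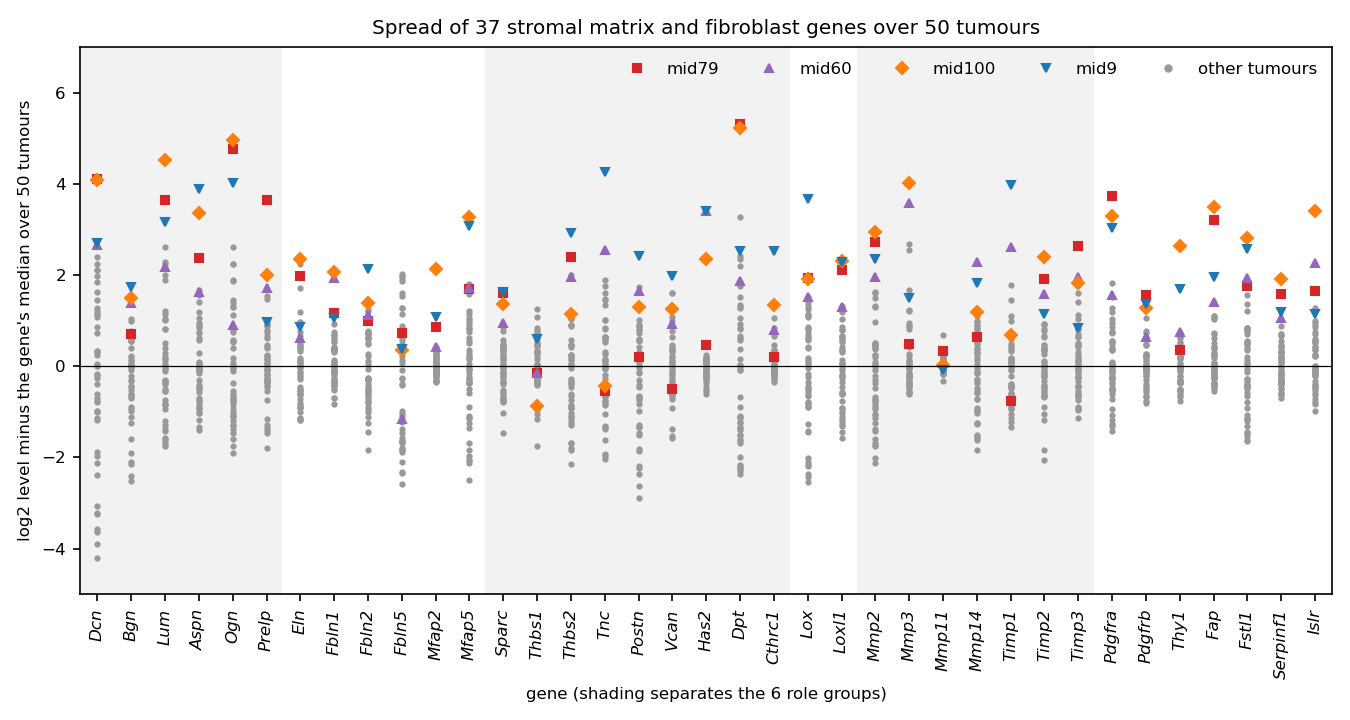
Each point is 1 tumour, placed by its log2 level minus the median of that gene over the 50 tumours (vertical axis, log2) for each of the 37 genes (horizontal axis, in 6 role groups separated by shading), with mid79, mid60, mid100 and mid9 marked. Dcn and Dpt span the most, Mmp11 the least, and the marked tumours sit at the top for most genes but not for Fbln5, Thbs1 or Mmp11.

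The members were then set against each other. Over the 666 pairs of the 37 genes the mean Pearson correlation across tumours was 0.631 (Spearman's rho 0.642), against a mean r of 0.00587 over all genes past the filter. The r was over 0.5 for 520 pairs and under 0 for 20. Leaving out mid79, mid60 and mid100 gave a mean of 0.619. These correlations are descriptions, since the points share the same arrays and the same biopsies. The 3 closest pairs were Loxl1 with Fstl1 (r = 0.971, rho = 0.963), Ogn with Dpt (r = 0.956, rho = 0.946) and Mfap5 with Loxl1 (r = 0.956, rho = 0.948). The 3 lowest all held Thbs1, with Eln (r = -0.18), Mmp2 (r = -0.12) and Prelp (r = -0.10). Without mid79, mid60 and mid100 the r of Thbs1 was -0.087 with Eln, -0.014 with Mmp2 and -0.0022 with Prelp. With the mean of the other members, r was 0.982 for Fstl1 and 0.974 for Loxl1, and 0.0318 for Thbs1, 0.158 for Fbln5 and 0.272 for Mmp11. Without the 3 arrays it was 0.185 for Thbs1, 0.158 for Fbln5 and 0.211 for Mmp11. The 34 genes other than these last 3 had a mean pairwise r of 0.726.

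Some members lie next to each other in the genome. Dcn and Lum are adjacent on chromosome 10 and correlated at r = 0.947 (rho = 0.980), Aspn and Ogn lie on chromosome 13 with 1 protein-coding gene between them (r = 0.880, rho = 0.853), and Islr and Loxl1 lie on chromosome 9 with 3 between them (r = 0.880, rho = 0.922). The gene order is that of RefSeq on GRCm38.p6. The closest pair of all, Loxl1 with Fstl1, is on chromosomes 9 and 16.

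Promoter sequence was available for 25 of the 39 genes, as 30 windows of 300 bases from RefSeq on GRCm38.p6, each with 250 bases before and 50 after a start. Both strands were searched for 4 motifs: TATAAA, the TATA box; GGGCGG, the GC box bound by Sp1; TGANTCA, the AP-1 element; and CATTCC, the core of the TEAD element. TGANTCA reads the same on both strands, and no motif contains another. TATAAA was in 8 of 30 windows (26.7%, against 13.62% of 32851 windows in all), GGGCGG in 15 of 30 (50.0%, against 35.7%), CATTCC in 3 of 30 (against 14.7%) and TGANTCA in 1 of 30 (3.33%, against 7.81%). Tnc was the gene whose windows held both TATAAA and GGGCGG. The windows below are shown because Aspn and Ogn are genomic neighbours that moved together and both hold TATAAA, Mmp3 is the member with TGANTCA, and Bgn, among the closest followers of Col1a1, holds GGGCGG on its opposite strand and no TATAAA. Capitals mark the motif matches on either strand. Counted from the start, the first TATAAA match lay at -207 in Aspn, -229 in Ogn and -7 in Mmp3.
Aspn, chr13:49544193-49544492, plus strand: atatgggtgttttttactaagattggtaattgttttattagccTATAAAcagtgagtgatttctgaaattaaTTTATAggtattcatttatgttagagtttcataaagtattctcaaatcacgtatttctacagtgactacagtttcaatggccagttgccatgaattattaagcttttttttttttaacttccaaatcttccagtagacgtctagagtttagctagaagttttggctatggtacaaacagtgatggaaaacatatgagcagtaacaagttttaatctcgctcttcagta
Ogn, chr13:49607765-49608064, plus strand: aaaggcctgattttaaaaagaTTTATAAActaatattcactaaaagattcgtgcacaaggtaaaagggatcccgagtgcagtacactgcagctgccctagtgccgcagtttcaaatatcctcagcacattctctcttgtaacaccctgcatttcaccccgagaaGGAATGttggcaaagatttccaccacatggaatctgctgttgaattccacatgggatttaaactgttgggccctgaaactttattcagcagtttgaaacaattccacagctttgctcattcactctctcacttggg
Mmp3, chr9:7445572-7445871, plus strand: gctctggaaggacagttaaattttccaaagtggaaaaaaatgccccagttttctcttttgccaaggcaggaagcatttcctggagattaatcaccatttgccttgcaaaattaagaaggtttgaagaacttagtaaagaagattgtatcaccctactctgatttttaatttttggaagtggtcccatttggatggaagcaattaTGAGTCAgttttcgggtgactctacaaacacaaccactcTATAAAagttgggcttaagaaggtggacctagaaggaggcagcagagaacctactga
Bgn, chrX:73483351-73483650, plus strand: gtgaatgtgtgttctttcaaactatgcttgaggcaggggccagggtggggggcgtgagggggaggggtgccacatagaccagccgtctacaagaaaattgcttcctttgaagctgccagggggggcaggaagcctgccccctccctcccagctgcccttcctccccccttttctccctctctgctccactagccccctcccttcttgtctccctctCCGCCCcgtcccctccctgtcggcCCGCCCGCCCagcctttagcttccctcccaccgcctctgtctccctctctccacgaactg
A match is a string of letters in a window and not a site at which a factor was measured.

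The type I collagen gene Col1a1, which is not among the 37 genes, served as the measure of collagen-producing stroma. It ran between 7.16 log2 in mid115 and 12.30 in mid9, with a median of 9.45. Each gene past the filter was regressed on the Col1a1 level over the 50 tumours with limma, so that a slope is the change in log2 level per SD of Col1a1, and a gene was called where the p adjusted over all genes (Benjamini-Hochberg) was under 0.05. The members rose together with Col1a1: 34 of 37 were called higher and 0 lower, beside 8.1% of all 18044 genes called higher and 5.62% lower. The median slope was 0.62 over the 37 members and -0.02 over all genes. With mid79, mid60 and mid100 left out it was again 34 of 37 (6.6% of all genes).

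Postn rose by 1.14 log2 per SD of Col1a1 (SE 0.051, adjusted p = 2.47e-24), Lox by 1.28 (SE 0.059, adjusted p = 5.91e-24) and Bgn by 0.94 (SE 0.043, adjusted p = 5.91e-24). These 3 genes, a collagen-bound matricellular protein, the enzyme that crosslinks collagen and a collagen-binding proteoglycan, had the largest moderated t. Next were Fstl1 (0.99), Mfap5 (1.18), Loxl1 (0.87), Sparc (0.58) and Thbs2, for each of which the SE was at most 0.076. By role, all 6 proteoglycans rose, with the steepest slope for Dcn (1.72, SE 0.151) and the shallowest for Prelp (0.60, SE 0.105). All 7 fibroblast surface and secreted genes rose, between 0.44 for Thy1 and 0.99 for Fstl1, and both crosslinking enzymes did. Of the matricellular and large matrix genes 8 of 9 rose, with the exception of Thbs1, and Vcan came nearest to the threshold (0.41, SE 0.098, adjusted p = 0.00224). Of the elastic fibre and microfibril genes 5 of 6 rose, with the exception of Fbln5, and of the metalloproteinases and inhibitors 6 of 7, with the exception of Mmp11.

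**Figure D2:**
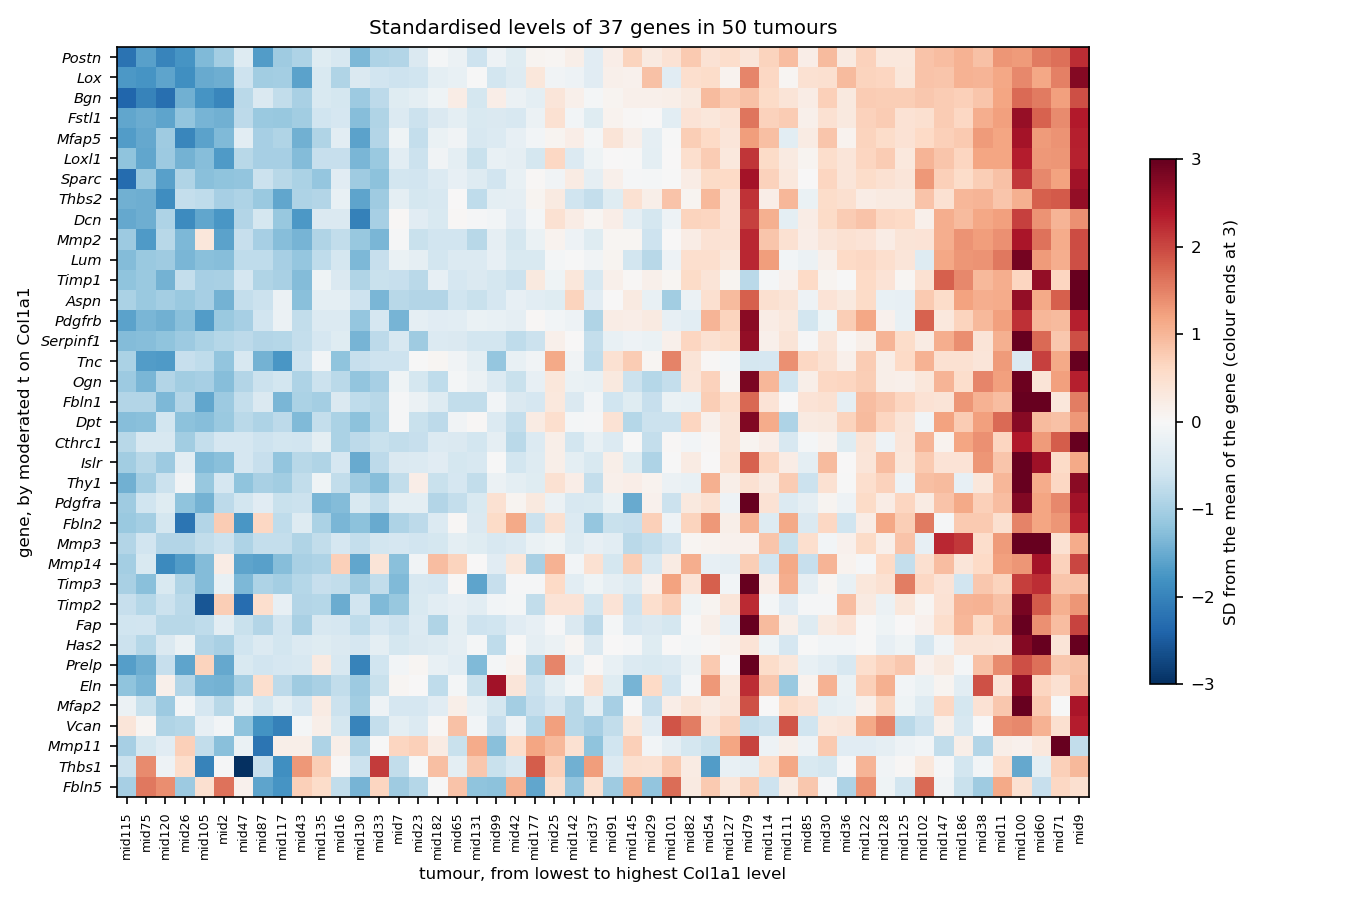
Colour gives the standardised level (SD from the mean of the gene over 50 tumours) of each of the 37 genes (rows, by moderated t on Col1a1) in each tumour (columns, from the lowest to the highest Col1a1 level). Most rows turn from blue on the left to red on the right, while the lowest 3 rows, Mmp11, Thbs1 and Fbln5, do not, and mid79 stands out as a red column away from the right edge.

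The 3 genes that did not pass the test differed in how they varied. Thbs1 changed by 0.07 log2 per SD of Col1a1 (SE 0.082, adjusted p = 0.593) although its values spanned 3.56-fold between the 5th and 95th percentiles. Fbln5 had a slope of 0.11 (SE 0.185, adjusted p = 0.726) and one of the largest spans of the list, 17.4-fold. The levels of these 2 genes were therefore neither flat nor related to Col1a1 beyond the error. None of the other 6 predictors used below was called for them, with adjusted p between 0.428 and 0.948 for Fbln5 and between 0.464 and 0.765 for Thbs1. Mmp11 had a slope of 0.04 (SE 0.022, adjusted p = 0.190) on the probe set with the higher mean. Its second probe set, which has the larger SD (0.44 against 0.15) and correlated with the first at r = 0.450, gave 0.25 (adjusted p = 0.000339), so the call for Mmp11 depends on the probe set. The second probe sets of Bgn and Prelp correlated with those used at r = 0.861 and 0.601.

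Vessels and macrophages are the other main residents of the stroma, and each was measured by a score, the mean of its standardised marker genes. With the endothelial score (18 genes such as Pecam1 and Cdh5, all measured), 33 of 37 members rose and 0 fell, beside 14.5% of all genes called higher and 20.4% lower. Fap had the largest moderated t (0.75 per SD, SE 0.050, adjusted p = 6.78e-18), followed by Ogn (1.30, SE 0.129, adjusted p = 6.82e-12) and Sparc (0.52, SE 0.052, adjusted p = 9.46e-12). Both PDGF receptors rose, Pdgfra by 0.89 (SE 0.090) and Pdgfrb by 0.43 (SE 0.047). The score was highest in mid79 (4.49 SD) and mid100 (3.63 SD), the tumours with the highest Fap. Without mid79, mid60 and mid100 the count was 32 (6.1% of all genes), and the slope of Fap was 0.39 (SE 0.049, adjusted p = 5.59e-08).

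Tnc, Vcan, Fbln5 and Thbs1 were not called with the endothelial score. For Tnc the result rested on those arrays: the slope was 0.30 (SE 0.164, adjusted p = 0.160) in 50 tumours and 0.69 (SE 0.139, adjusted p = 0.000344) without them. Timp1 showed the same pattern, 0.35 (SE 0.128, adjusted p = 0.0298) in 50 tumours and 0.64 (SE 0.096, adjusted p = 2.32e-06) without them. In mid79 Tnc and Timp1 stood at 6.97 and 5.45, both below their medians, while Dcn, Dpt, Prelp, Timp3, Pdgfra and Pdgfrb were each at their highest. The adipocyte score of that tumour is given above, and its part in these values was not tested. Mmp11 passed narrowly (0.05, SE 0.021, adjusted p = 0.0479) and did not without the 3 arrays (adjusted p = 0.249).

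With the macrophage score (18 genes such as Csf1r and Adgre1, all measured), 34 of 37 rose and 0 fell, beside 11.8% of all genes called higher and 16.4% lower. Thy1 led (0.50 per SD, SE 0.046, adjusted p = 1.15e-12), followed by Aspn (0.96, SE 0.094, adjusted p = 7.58e-12) and Mmp3 (0.84, SE 0.084, adjusted p = 1.28e-11). The members not called were the ones that did not follow Col1a1: Thbs1, Fbln5 and Mmp11. The score was highest in mid100 (3.52 SD) and mid9 (2.88 SD). After removal of the 3 arrays the count was 32 (7.34% of all genes).

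**Figure D3:**
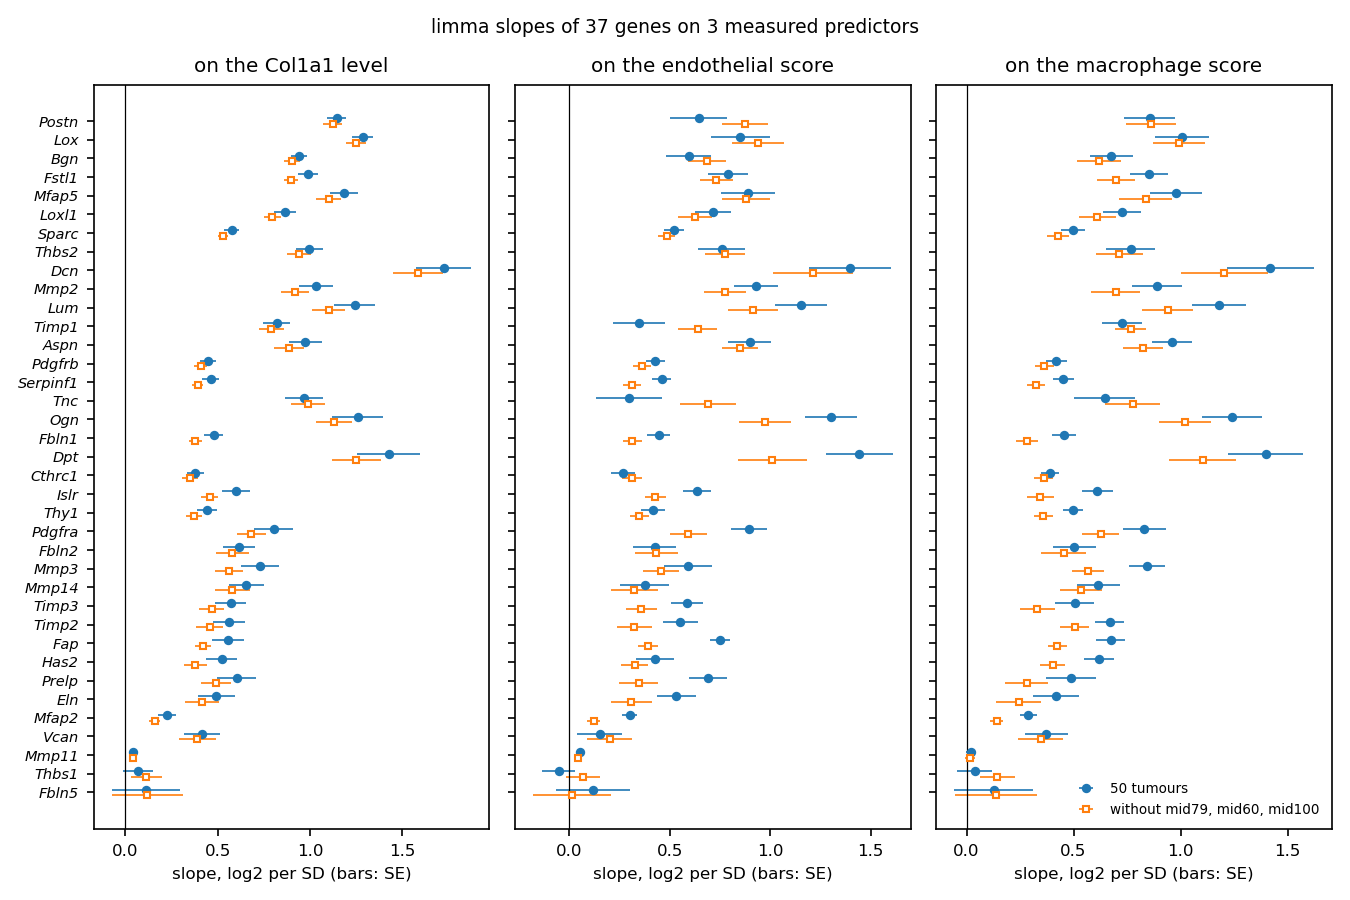
Slopes (log2 per SD, with bars for the SE) of the 37 genes on the Col1a1 level, the endothelial score and the macrophage score, in 50 tumours (filled circles) and without mid79, mid60 and mid100 (open squares), ordered by moderated t on Col1a1. Nearly all slopes lie right of 0 in the 3 panels, with Mmp11, Thbs1 and Fbln5 near 0, and Tnc and Timp1 move right on the endothelial score when the 3 arrays are left out.

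Since most endothelial and macrophage genes rose with Col1a1 as well, each measure was also fitted beside the others. With the endothelial and macrophage scores as covariates, 20 of 37 members still rose with Col1a1, beside 1.17% of all genes, and 22 did without the 3 arrays (0.905%). Bgn (0.93, SE 0.063), Postn (1.12, SE 0.077) and Lox (1.15, SE 0.084) led again, and Tnc had a slope of 1.14 (SE 0.138, adjusted p = 7.19e-08). Fap had a slope of 0.02 (SE 0.055, adjusted p = 0.882) in this fit and was not called, unlike Tnc.

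With Col1a1 as the covariate, 23 members rose with the endothelial score (11.7% of all genes) and 1 fell, Tnc (-0.39, SE 0.113, adjusted p = 0.00784), beside 13.7% of all genes called lower. Without mid79, mid60 and mid100 the count was 1 gene, Sparc (0.19, SE 0.036, adjusted p = 0.0021), beside 0.427% of all genes, so nearly all of these calls were made only with the 3 arrays included. At an unadjusted p under 0.05 the count was 6 of 37.

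For the macrophage score more calls were left. With Col1a1 as the covariate 18 members rose (7.05% of all genes), and 8 did without the 3 arrays (3.65%). In that smaller set of tumours the 8 genes were Timp1 (0.40, SE 0.085, adjusted p = 0.00132), Fap (0.25, SE 0.055, adjusted p = 0.00186), Timp2 (0.37, SE 0.097, adjusted p = 0.0111), Cthrc1 (0.22), Aspn (0.38), Thy1 (0.19), Has2 (0.27) and Mmp3 (0.34). They include 3 of the 7 genes of proteolysis and its inhibition, and neither Lox, Postn nor Bgn, the genes closest to Col1a1. For Postn the slope was 0.06 and for Bgn -0.11, neither called. The difference between the endothelial and the macrophage score in these counts was not tested.

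**Figure D4:**
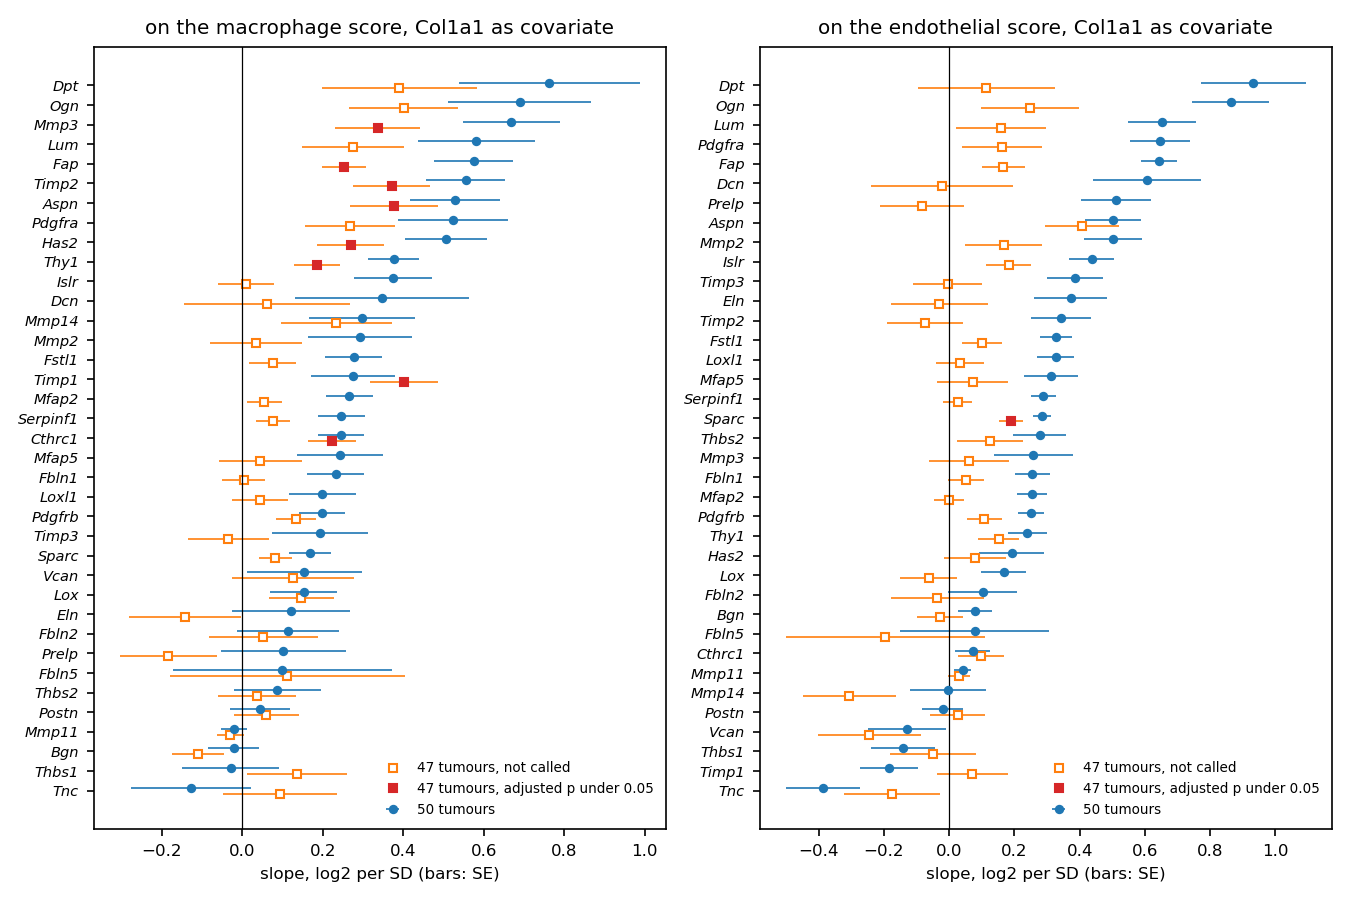
Slopes (log2 per SD, bars for the SE) of the 37 genes on the macrophage score (left) and the endothelial score (right) with Col1a1 as a covariate, in 50 tumours (circles) and in the 47 tumours without mid79, mid60 and mid100 (squares, filled red where called). In 47 tumours 8 genes are filled on the left and 1, Sparc, on the right.

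The tumour cell side was measured by Erbb2, by an epithelial score (13 genes) and by a proliferation score (24 genes). In 50 tumours 25 members fell with the Erbb2 level (14.7% of all genes called lower), 16 with the epithelial score (9.45%) and 6 with the proliferation score (8.23%), and 0 rose with any of them in these fits without a covariate, beside 16.6%, 11.7% and 11.3% of all genes called higher. On Erbb2 the slopes of Fap, Has2 and Fbln1 were -0.48 (SE 0.094, adjusted p = 6.76e-05), -0.44 (SE 0.093, adjusted p = 0.000239) and -0.32 (SE 0.072, adjusted p = 0.000368). Without mid79, mid60 and mid100 no member was called with Erbb2 (limma, 6 at an unadjusted p under 0.05), beside 0.105% of all genes called lower. The Erbb2 levels of mid60 and mid79 lay 4.75 and 4.32 SD below the mean, and those tumours had among the highest levels of most members. Whether these slopes on Erbb2 came from the epithelial share of the biopsies or from the transgene itself was not tested.

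With the epithelial score Fap (-0.49, SE 0.094), Ogn (-0.88, SE 0.186) and Pdgfra (-0.60, SE 0.129) led the fall. Here mid60 and mid79 lay on opposite ends, at 2.34 and -5.86 SD, and with both left out 29 members fell (6.52% of all genes). When mid100 was left out as well, 5 members fell, Cthrc1, Ogn, Aspn, Fap and Pdgfra (0.521% of all genes). With Col1a1 as a covariate 20 members fell with the epithelial score (9.42% of all genes called lower) and 2 rose (11.3% called higher), Tnc (0.33, SE 0.092, adjusted p = 0.00653) and Timp1 (0.20, SE 0.071, adjusted p = 0.0379). Neither rise was called when the 3 arrays were also left out (adjusted p = 0.285 and 0.466), and Timp1 then had a slope of -0.12. With the proliferation score Timp2 (-0.41, SE 0.101), Fap (-0.40, SE 0.102) and Timp3 (-0.37, SE 0.103) led, and without the 3 arrays Timp2 was the 1 member that fell (-0.29, 2.24% of all genes).

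Lox is known as a target of the hypoxia response, so a hypoxia score (17 genes such as Car9 and Vegfa) was also fitted. No member was called with it in either direction (limma, 0 at an unadjusted p under 0.05, beside 0.544% of all genes called higher and 0.0499% lower). Lox had a slope of 0.06 (SE 0.189, adjusted p = 0.971), against 1.28 on Col1a1. Few genes of any kind were called with this score.

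**Figure D5:**
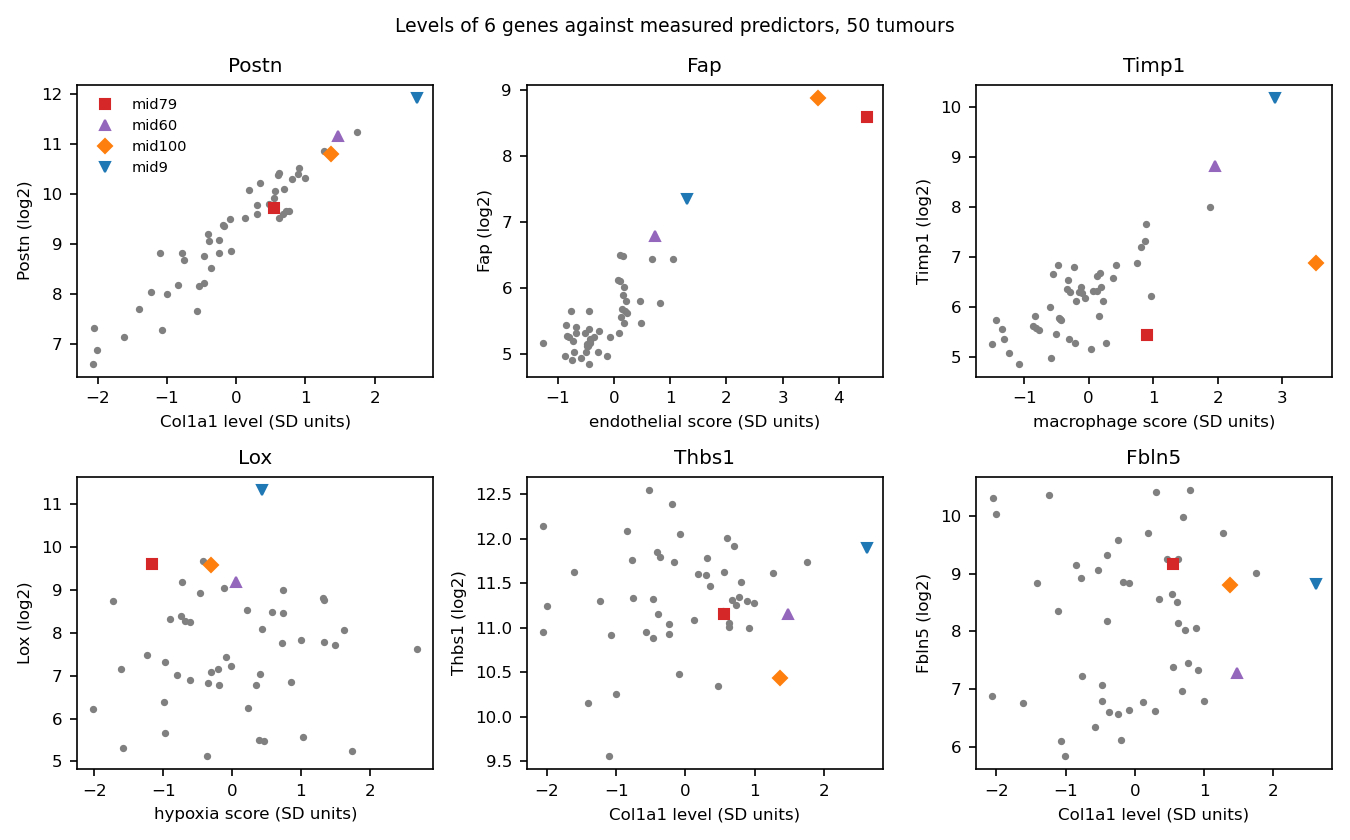
Level of 6 genes (vertical axes, log2) in each of 50 tumours against the predictor named under each panel (horizontal axes, SD units), with mid79, mid60, mid100 and mid9 marked. Postn follows Col1a1 closely, Fap is highest in the tumours with the highest endothelial score, mid79 and mid100 lie below the trend of Timp1 on the macrophage score, and Lox on hypoxia and Thbs1 and Fbln5 on Col1a1 have no called slope.

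Other genes of the same pathways were set against Col1a1 in the same fit. Of 30 other fibroblast genes 24 rose, led by Fn1, fibronectin (1.35, SE 0.057), Lrp1, an endocytic receptor for proteases and matrix (0.75, SE 0.064), and Gpx3, a secreted peroxidase (0.73, SE 0.067). Of 28 other matrix proteases and inhibitors 16 rose, led by Ctsk, the collagenolytic cathepsin K (0.76, SE 0.064), and by the procollagen processing genes Pcolce (0.55, SE 0.050) and Bmp1 (0.63, SE 0.057). Of 20 genes of the TGF-beta pathway 9 rose, led by Tgfbi (0.63, SE 0.085), Ccn2 (0.58, SE 0.081) and Eng (0.46, SE 0.067), an endothelial coreceptor that the endothelial list also holds. Of 6 PDGF ligands and receptor partners 3 rose: Pdgfrl (0.43), Nrp1 (0.53) and Pdgfb (0.19), the ligand of PDGF receptor beta. None of the genes in these 4 lists fell, and the share of all genes called higher with Col1a1 was 8.1%, as given above.

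Genes of other tissue compartments were counted in the same way, beside the same 8.1% of all genes called higher and 5.62% lower. None of the genes in these lists was called lower. Of 17 basement membrane genes other than collagens 7 rose, led by Nid1 (0.71), Hspg2 (0.49) and Lama2 (0.45). Nid1 is also counted among the other fibroblast genes above. Of 16 pericyte and smooth muscle genes 12 rose, led by Tagln (0.58), Acta2 (0.63) and Actg2 (0.32), contractile genes that myofibroblasts share. Of 18 macrophage genes 17 rose (Mrc1 0.97, Lyz2 0.58 and Adgre1 0.52) and of 18 endothelial genes 15 (Cdh5 0.50, Pecam1 0.49). Counts were 9 of 14 for skeletal muscle (Acta1 0.59, Neb 0.53, Ttn 0.59) and 5 of 10 for myoepithelial genes. The skeletal muscle score was 4.62 in mid100 and 4.44 in mid71, and -0.44 at its lowest. Col1a1 stood at 1.37 SD in mid100 and 1.75 SD in mid71, and the muscle genes were not counted without these tumours. Of the called myoepithelial genes, Acta2, Cnn1, Myh11 and Mylk are also in the smooth muscle list. Counts were 2 of 11 for adipocytes (Fabp4 1.15 and Lpl 0.54, with Pparg at 0.31 not called) and 2 of 5 for peripheral nerve (Ncam1 0.49 and Pmp22 0.29). The Schwann cell markers Sox10 at -0.21 and S100b at -0.30 were not called. For T and NK cells the count was 1 of 14 (Cd4 0.19, with Cd3e at 0.13 and Cd2 at 0.06 not called). The count for T and NK cells is no larger a share than that over all genes. Of 17 hypoxia genes 2 rose, P4ha2 (0.30) and P4ha1 (0.25), the catalytic subunits of the prolyl hydroxylase that modifies collagen. Next by moderated t were Egln3 (-0.25, adjusted p = 0.0842), Pfkfb3 (0.20, adjusted p = 0.0999) and Car9 (-0.28, adjusted p = 0.123), none of them called. The median slope of the list was -0.02 in this limma fit. None of the 13 epithelial, 24 proliferation and 11 skin genes was called, and in those lists Cldn3 (-0.20), Tyms (-0.11) and Trp63 (0.11) had the largest moderated statistics.

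Outside the list, the genes with the highest mean correlation to the 37 members over the 50 tumours were Col6a1 (mean r = 0.779), Col3a1 (0.776), Ctsk (0.775), Antxr1, a collagen VI receptor (0.772), Lrp1 (0.768), Cdh11, the cadherin of fibroblasts (0.766), Il1r1 (0.762), Sulf1, which trims heparan sulfate (0.760), Gpx3 (0.759) and Serping1, the C1 inhibitor (0.758). Nearest to single members were different genes. For Postn they were Col1a2 (r = 0.957), Col1a1 (0.954) and Fn1 (0.943), and for Lox the same 3 genes (each at 0.951 or more). For Dcn they were Ifi205 (r = 0.947), Col3a1 (0.943) and Svep1 (0.934), and for Tnc they were Lrrc15 (0.856), Ccn4 (0.846) and Bmp1 (0.837). Postn and Lox thus had the fibrillar collagen genes as their nearest, whereas Tnc did not. For Mmp3 they were Prg4, lubricin (0.924), Il33 (0.887) and Cpxm1 (0.885), and for Timp3 they were Rasa3 (0.863), Rbms3 (0.855) and Hip1 (0.853).

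The genes that did not follow Col1a1 had weaker nearest neighbours. For Thbs1 they were Ptk2b (r = 0.670), Sash1 (0.649) and Ndfip1 (0.613), and for Fbln5 they were Cpne8 (0.705), Pros1 (0.641) and Arnt2 (0.612). For Mmp11 they were Myoz3 (0.623), Unc45b (0.566) and Cmya5 (0.527), genes of striated muscle, but by Spearman's rho these were 0.354, 0.287 and 0.154. Mmp11 was highest in mid71, a tumour with a skeletal muscle score of 4.44. In mid100, where that score was highest (4.62), Mmp11 was at 6.05, near its median of 6.015. The part of muscle tissue in the values of Mmp11 was not tested. The neighbours of Fbln5 and Mmp11 were looked up after their values were seen. These correlations are descriptions over 50 tumours that share arrays and tissue composition.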

How the data were processed

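The deposited values are log2 expression computed by the authors with RMA, per the submitters' processing notes, for 34472 probe sets on each of 50 arrays. No RMA version is stated there, and mm8 is listed as a build with no role. RMA equalises the distribution of values between arrays, which hides any shift common to most genes. In the platform annotation 23521 probe sets name 1 gene, 1814 several and 9137 none, and for 23328 of the first kind the Entrez identifier was found in the RefSeq gene table (193 were not). For 1082 genes with several probe sets the highest mean decided. The filter removed genes whose mean was below 4.09 log2 (25th percentile over probe sets).

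Regressions used limma 3.58.1 (lmFit, eBayes with trend) in R 4.3.3 over all genes past the filter, on predictors standardised over the tumours used. Scores are means of standardised list genes, and predictor genes were left out of their own fit. P-values were adjusted by Benjamini-Hochberg over all genes and called under 0.05. Each weighs a slope against the spread of tumours around the fitted line, over the tumours used in that fit. The regression was tested on simulated data. Alternatives left out tumours, changed the filter, the probe set rule or the normalization, used ranks or array weights, or added covariates. The members, the lists and the tests were chosen with earlier results of these data known. Named genes were all members; per regression, the 3 called members with the largest moderated t in each direction whose sign held when the 2 extreme tumours of the predictor were dropped; per other list, the 3 with the largest t on Col1a1; the 10 non-members with the highest mean r; the 3 nearest to each of Dcn, Postn, Tnc, Thbs1, Timp3, Lox and Mmp3 (those of Fbln5 and Mmp11 were added after their values were seen); and the 3 highest and 3 lowest pairs. Other tools were Python 3.11.15, numpy 2.4.6, pandas 2.3.3 and matplotlib 3.10.9.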

Additional observations from a re-analysis of the deposited data

How the results depend on the processing

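Counts of members called with Col1a1, the endothelial score and the macrophage score stayed within 1.5 times of those in the report under all alternatives without a covariate: tumours left out, ranks of the predictor, weights for arrays, quantile normalization done again, other rules for genes with several probe sets, and a filter that was dropped or set at the 50th percentile. The run without mid79, mid60, mid100 and mid9, and those that join a covariate with tumours left out, were chosen after seeing the data. With the endothelial and macrophage scores as covariates the Col1a1 count was 20, and 22 when mid79, mid60 and mid100 were also left out. With Col1a1 as a covariate the macrophage count was 18, and 8 also without the 3 arrays, where the endothelial count was 1. Against 25 for Erbb2, the count was 0 without mid60 and mid79, 0 without the 3 arrays, 2 by ranks, 2 with array weights, 0 without the 4 tumours, and 0 with Col1a1 as a covariate without the 3 arrays. Against 16 for the epithelial score it was, in that order, 29, 5, 6, 8, 0 and 0. Against 6 for the proliferation score it was 0 without mid2 and mid79, the tumours farthest from its median, 1 without the 3 arrays, 1 by ranks, 1 with array weights, 12 with Col1a1 as a covariate, 1 without the 4 tumours and 1 with the covariate and without the 3 arrays. Some slopes named in the report turned their sign. With Col1a1 as a covariate these were Tnc (-0.39) and Timp1 (-0.18) on the endothelial score. With both scores as covariates it was Mfap2 on Col1a1 (-0.0087). With Col1a1 as a covariate and the 3 arrays left out, Bgn on the macrophage score and Timp1 on the epithelial score also turned, as given above, and neither was called there. The cause was not tested. No paired analysis was possible because the labels put all tumours in 1 group. Values near the bottom of the scale, as for Mmp3, Fap and Has2 in most tumours and for Dcn and Lum in the lowest, are compressed by background, which limits what their low levels show.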
